A study of Apis mellifera with 5 samples.

Results

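The unigenes described here are those of the honey bee hypopharyngeal glands (HGs) whose best protein match is named a zinc finger, homeobox, homeotic or transcription factor protein. They were found by searching the protein match names in the annotation deposited with the day 3 library for these 4 phrases, and kept if they had at least 10 unique reads (reads matching that unigene alone) summed over the 5 libraries. The search matched 132 unigenes, and 96 of them passed the minimum, out of 20522 unigenes with a read. The other 36 had too few reads for their values to be described one by one. HGs were taken from full-sister workers of *Apis mellifera carnica* Pollmann at 5 ages, days 3, 6, 9, 12 and 16 after emergence from the comb, with no treatment. RNA of 30 bees was pooled at each age and sequenced as 1 library, so the bees of an age count as 1 sample and nothing measures the spread between samples of the same age.

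Transcription factors bind short DNA sequences near genes and raise or lower their transcription. Homeobox proteins carry the homeodomain, a helical DNA-binding fold, and are best known in insects for laying down segments, appendages and nerve cell types. Zinc finger proteins are a larger and more mixed group, in which a zinc ion holds a small fold that can bind DNA, RNA or another protein. The general factors of the transcription machinery, also caught by the search words, work at the promoters of many genes in every cell. The HGs are paired glands in the worker's head that make the protein of royal jelly (RJ) during the nursing phase and turn to enzymes of honey making later. They grow from secretory cells, and the dissected tissue can also hold nerve, muscle, fat body and blood cells.

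The libraries held 1.70, 1.52, 1.21, 1.34 and 1.82 M unique reads (M, 1000000) in the order of age. The 10 most abundant unigenes took 10.9%, 16.8%, 26.9%, 31.3% and 25.0% of them in the same order. Every value per library total is therefore a share of a total that the most abundant unigenes fill to an unequal degree. Among all 15538 unigenes with at least 10 reads, the median log2 ratio to day 3 was -0.20, -0.47, -0.65 and -0.50 at the 4 later ages. The annotation covers unigenes with an RPKM (unique reads per kilobase of the unigene, scaled to the library's total) under 10 on day 3, so it leaves out the most abundant genes of that library and favours values that are higher later. The 3098 unigenes with a protein match in the same annotation and at least 10 reads, called named unigenes below, share this choice, and the 96 are read against them. Lists of marker names among the named unigenes held 24 for gland secretion, whose summed level went from 63.6 reads per 1000000 unique reads (RPM) on day 3 to 378 on day 16, and 32 for muscle, from 313 to 2369. Of the 686 secretion reads on day 16, 525 came from major royal jelly protein 9 (TC12355), and the other 23 unigenes had 61.8, 105, 243, 167 and 88.7 RPM in the order of age.

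The 96 unigenes were sparsely read. Their median was 36.5 reads over the 5 libraries, against 34 for the named unigenes, with a range from 10 to 391. A total of 17 had at least 100 reads, 40 had fewer than 30, and 88 had a read in every library. The median RPKM was 4.87, 4.59, 3.76, 2.94 and 3.93 in the order of age, against 5.12, 4.77, 4.23, 3.82 and 4.39 for the named unigenes, and the highest value of any of the 96 was 41.5. On day 3 the reads covered a median of 25.1% of the length of a unigene. At the edge of the minimum, 3 of the 96 had exactly 10 reads and 3 of the name matches had 9.

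By name the 96 fell into 21 homeobox and homeotic proteins, 37 zinc finger proteins without a further type, 8 zinc finger proteins of other named types such as CCHC, FYVE and MYND, 9 basal and general factors, and 21 other named transcription factors. Some names in the class without a further type do carry a type or domain, such as NF-X1, MIZ, BED and PR, so this class is mixed too. The best match of 86 was in an ant, *Camponotus floridanus* or *Harpegnathos saltator*, and that of 4 in the honey bee itself. The name of a unigene is thus mostly that of its nearest relative in another insect. Between the 96 there were 89 distinct names, and unigenes that share one, such as both that match araucan, may be pieces of 1 gene or close relatives. Many carry the number of a vertebrate gene, among them 24 called zinc finger protein with a number, and such a number says little about which bee gene it is.

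The Gene Ontology terms in the annotation, which the search did not use, separate the classes. A function term was given to 20 of the 21 homeobox and homeotic unigenes, and for 16 of them it included DNA binding. Only 9 of the 37 zinc finger proteins without a further type had a function term, DNA binding was given for none of them, and 6 had metal ion binding. Over all 96, DNA binding was given for 19.8%, against 0.933% of the 3002 named unigenes that the search did not match. The unigenes had a median length of 1364.5 bases, against 1065.5 for the named unigenes.

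Few of the 96 were called as different between libraries. A unigene was called where Audic and Claverie's exact test on the reads of a pair of libraries gave a false discovery rate (FDR), adjusted over all unigenes, no higher than 0.001 and the log2 ratio was 1 or more in size. The test compares the libraries, not the ages. None of the 96 was called on day 6 against day 3, where 0.574% of all unigenes tested were called higher and 0.289% lower, and 2 of the 96 were higher and 2 lower at an unadjusted p under 0.05. None was called on day 9 against day 3 either, beside 1.27% higher and 6.31% lower of all unigenes, with 4 higher and 8 lower at an unadjusted p under 0.05. On day 12 against day 3, 1 was called higher and 3 lower, beside 1.8% and 12.5% of all unigenes. On day 16 against day 3, 2 were called higher and 1 lower, beside 2.51% and 9.9%. On day 16 against day 12 none was called, beside 2.33% higher and 0.748% lower, and 11 of the 96 were higher and 2 lower at an unadjusted p under 0.05.

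Set beside the named unigenes, which share the limit on day 3, these are small shares of both lists. On day 12, 3.12% of the 96 and 1.81% of the named unigenes were called lower, and 1.04% and 3.2% higher. On day 16, 2.08% of the 96 and 5.23% of the named unigenes were called higher. The depth limits these counts, because 26 of the 96 had enough reads on day 3 to be called on day 12 if no read at all were left there, and 8 could be called at a 4-fold fall. A 4-fold rise could be called for 48. The calls depend on the total used for scaling. With TMM scaling, which balances the bulk of unigenes between libraries, 2 of the 96 were called higher and 0 lower on day 12, and 4 higher and 0 lower on day 16, with 0 called on days 6 and 9. TMM scaling moves the median ratio of all unigenes on day 12 from -0.65 to -0.06, and the split of all calls from 347 higher and 2411 lower to 702 and 825.

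**Figure D1:**
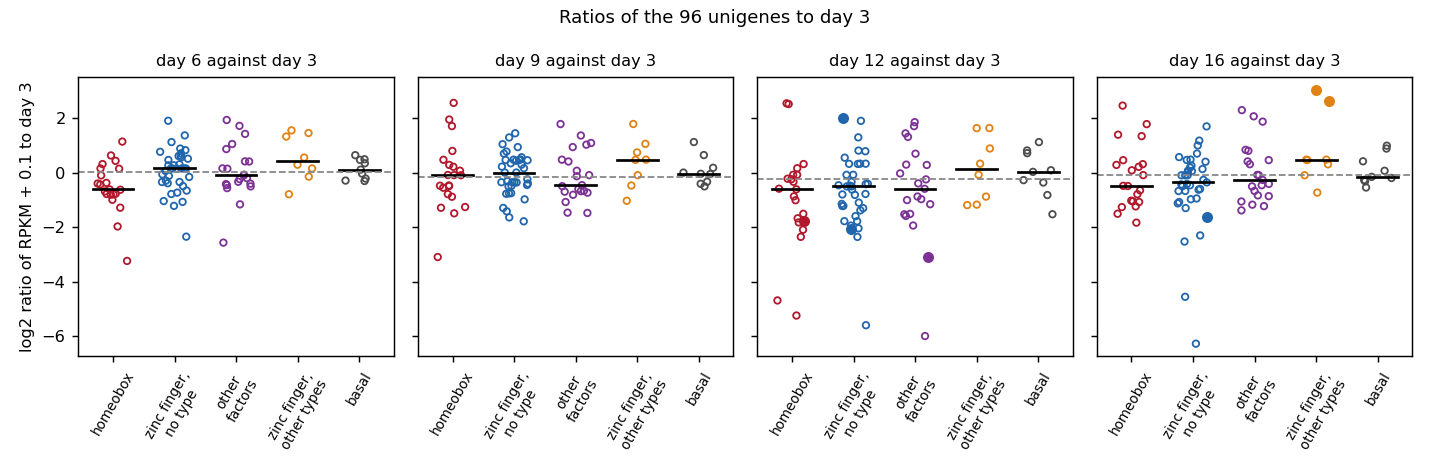
Log2 ratio of RPKM + 0.1 to day 3 for each of the 96 unigenes (points) by class, 1 panel per age; filled points were called, black lines are class medians and the dashed line is the median of the 3098 named unigenes. Points far below the rest on days 12 and 16 are unigenes without a read in that library, whose ratio is set by the added 0.1, and the homeobox median lies below the dashed line on day 12 by 0.36 while the basal median lies above it by 0.28.

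By its median the group of 96 lay close to the named unigenes on days 6, 9 and 16 and below them on day 12. The median log2 ratio to day 3 relative to the named unigenes was 0.00, 0.05, -0.24 and -0.03 at the 4 later ages. With unigenes at 0 reads set to a floor of 3 reads, the day 12 median was -0.23. On day 12, 66 of the 96 had a ratio below 0 and 30 above, beside 1840 of the 3098 named unigenes below 0 and 1258 above. Of all 15538 unigenes with at least 10 reads, 11606 were below 0. At an unadjusted p under 0.05, 20 of the 96 (20.8%) were lower on day 12 and 4 higher (4.17%), against 12.1% and 7.23% of the named unigenes. These medians and counts are descriptions of 1 pair of libraries and carry no test.

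Day 12 was the library of lowest RPKM for 43 of the 96 (44.8%), against 31.0% of the named unigenes. Among those with at least 30 reads it was 28 of 56 (50.0%), against 33.5%. Day 3 was the library of highest RPKM for 27 of the 96 and day 12 for 11. The low fell on day 12 for 19 of 37 zinc finger proteins without a further type and 4 of 8 of other named types. It did so for 9 of 21 other named transcription factors, 8 of 21 homeobox and homeotic unigenes and 3 of 9 basal factors. The shares were not tested against each other.

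**Figure D2:**
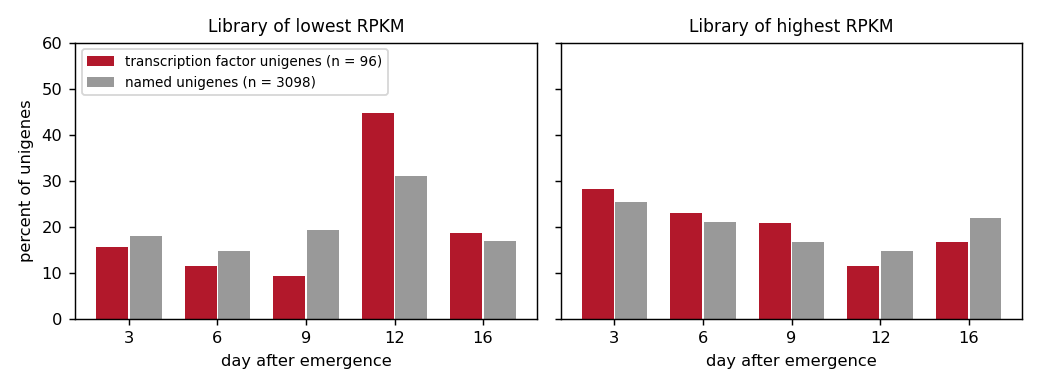
Percent of unigenes (y axis) whose lowest (left) or highest (right) RPKM fell on each day (x axis). Bars are for the 96 unigenes, labelled transcription factor unigenes although some are not, and for the 3098 named unigenes. The bar for a lowest value on day 12 is 44.8% for the 96 and 31.0% for the named unigenes.

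Summed reads give each class more depth than its members have singly, and they set the classes apart. From day 3 to day 16 the 96 together had 1347, 1200, 865, 770 and 1347 reads, or 793, 790, 716, 573 and 742 RPM. The log2 ratio of the sum on day 12 to day 3 was -0.47 (95% exact interval -0.60 to -0.34), and that of day 16 to day 12 was 0.37 (0.24 to 0.50). Without the 10 unigenes with most reads the day 12 value was -0.48. The sums differed from the medians on day 16, where the 96 were at -0.10 (-0.21 to 0.01) to day 3 and the other 3002 named unigenes at 0.81 (0.79 to 0.83). On day 12 those others were at 0.26 (0.24 to 0.28). Intervals are Clopper-Pearson intervals of a share of reads and cover counting error only. They treat each read as a separate molecule, which copies made by PCR are not. The sign on day 12 depends on scaling, since the summed ratio is 0.13 with TMM. Class is therefore set against class below, where the library total cancels.

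The basal and general factors took much the same share of the unique reads at every age. These 9 unigenes had 102, 110, 108, 105 and 106 RPM in the order of age. With TMM scaling their log2 ratios to day 3 were 0.25, 0.47, 0.63 and 0.52, and those of the zinc finger proteins without a further type 0.16, 0.24, 0.05 and 0.13, so which class is flattest depends on the scaling. The homeobox and homeotic unigenes had 109, 88.2, 85.3, 59.5 and 105. Relative to the basal factors, the homeobox sum on day 12 stood at a log2 ratio to day 3 of -0.90 (-1.42 to -0.39), and on day 16 against day 12 at 0.80 (0.29 to 1.31). Day 12 was thus the low point of the homeobox sum and day 16 was back near day 3. Without its members of most reads, spalt-major and the araucan unigene NP9548780, the day 12 value was -0.54 (-1.12 to 0.03), so these unigenes carried much of it. The zinc finger proteins without a further type were at -0.58 (-0.97 to -0.20) relative to the basal factors on day 12, and the other named transcription factors at -0.73 (-1.19 to -0.28).

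The zinc finger proteins of other named types were highest on day 16. They had 48.9, 67.2, 62.1, 55.1 and 95.3 RPM, and on day 16 the log2 ratio to day 3 relative to the basal factors was 0.91 (0.41 to 1.41). Its 2 called members, described below, held much of the sum. Without them it was -0.33 (-0.94 to 0.28), a fall that their choice by a rise on day 16 fixes in part, and without the 2 of most reads, FYVE domain-containing protein 26 and one of the called, it was 1.45 (0.74 to 2.19).

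**Figure D3:**
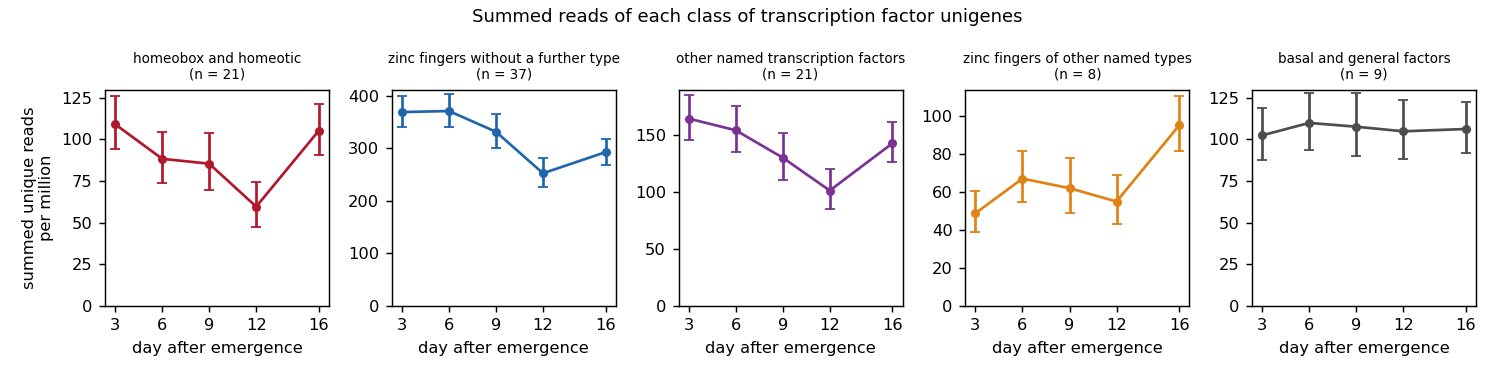
Summed unique reads in RPM (y axis, from 0) of each class against day after emergence (x axis); bars are 95% exact intervals of the share of reads and cover counting error only. Basal factors stay between 102 and 110, homeobox unigenes lie at 59.5 on day 12 and 105 on day 16, and zinc fingers of other named types reach 95.3 on day 16.

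Marker names of nerve cells had a similar low on day 12. The 6 names of fat body summed to 30.0, 31.6, 22.4, 17.9 and 18.7 RPM in the order of age, with a median on day 12 of -0.74 relative to the named unigenes. Their log2 ratio for day 16 over day 12 was 0.07 (-0.73 to 0.89), on 24 and 34 reads. A putative vitellogenin receptor (NP9552791) held 22 of their 51 reads on day 3 and 9 of 24 on day 12. The muscle, gland secretion and photoreceptor sums were higher on day 12 than on day 3, and the sum of blood cell names was lowest on day 6. Of the photoreceptor and antenna names, the 3 with most reads on day 16, all odorant binding proteins, went from 7.07 to 117 RPM. The other 15 names fell from 50.7 to 26.8 RPM between these ages. All these sums are shares of the library total and depend on scaling as well. The 45 named unigenes for neurons summed to 442, 394, 335, 308 and 404 RPM in the order of age. On day 12 against day 3, 4 were called lower and 1 higher, beside 12.5% and 1.8% of all unigenes. Of the named unigenes, 1.81% were called lower and 3.2% higher there. The median of the 45 on day 12 was -0.81 relative to the named unigenes, but they did not move together. Between these ages acetylcholinesterase 2 (TC22460) fell from 193 to 69 reads, while the kainate 2 receptor NP9553810 rose from 8 to 39. On day 12, 2 of the 45 had no read, the nicotinic acetylcholine receptor alpha4 subunit and neurexin 1, after 7 and 2 reads on day 3. Many homeobox proteins are made in nerve cells in other insects, and the part of such cells in the class values was not tested. In RNA of whole glands, fewer cells of a type and less RNA per cell cannot be told apart.

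Homeobox and homeotic unigenes with at least 30 reads numbered 8, and the 6 described here did not share 1 course. Spalt-major (NP9550339) is a homeotic protein by name and, in *Drosophila*, a zinc finger repressor that patterns the wing, the trachea and photoreceptors. From the first age to the last it had 41, 27, 10, 9 and 31 reads, or an RPKM of 5.05, 3.72, 1.73, 1.40 and 3.57. Days 9 and 12 were low, and day 16 lay between them and day 3. It fell on day 12 against day 3 by 1.85 on the log2 scale (interval -3.08 to -0.79, FDR 0.000708 in Audic and Claverie's exact test). With TMM scaling this ratio was -1.25 and was no longer called. Day 16 against day 12 was at 1.35 (0.24 to 2.61, FDR 0.102) and not called.

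Araucan belongs to the Iroquois group, which in *Drosophila* sets up sensory organs and wing veins, and 2 unigenes match it. NP9548780 had 29, 16, 14, 7 and 33 reads, so that the first and last ages were alike and day 12 was lowest. Its log2 ratio was -1.71 (-3.15 to -0.49, FDR 0.0103) for day 12 over day 3 and 1.80 (0.60 to 3.22, FDR 0.0173) for day 16 over day 12, and neither was called. The other unigene, NP9553459, had 8, 9, 7, 3 and 4 reads and stayed low on day 16. The intervals of its ratios are too wide to tell the courses of these unigenes apart at this depth.

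ALX1 (NP9546115) is a paired-type homeodomain protein known in vertebrates from skull and face development. It had 14, 17, 4, 6 and 7 reads, with its low values on days 9 to 16. None of these differences was called.

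Proboscipedia (NP9547067), a Hox protein that specifies mouthparts in *Drosophila*, went the other way. It had 2, 3, 10, 11 and 14 reads, or an RPKM of 0.447, 0.750, 3.14, 3.11 and 2.93. Days 3 and 6 were low and the later ages alike. The log2 ratio to day 3 was 2.81 on day 9 (0.58 to 6.04, FDR 0.0405), 2.80 on day 12 and 2.71 on day 16, with no call. Labial (NP9547065), another Hox protein of the head, is named here after its values were seen. It had 6, 3, 3, 1 and 3 reads, and both proteins were thus read in every library.

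Nkx-6.1 (NP9549888), known in mouse from motor neurons and the endocrine pancreas, had 9, 4, 6, 8 and 12 reads with no clear order. Of the 8 unigenes, 6 had a lower RPKM on day 12 than on day 3, and 3 had their lowest value there.

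**Figure D4:**
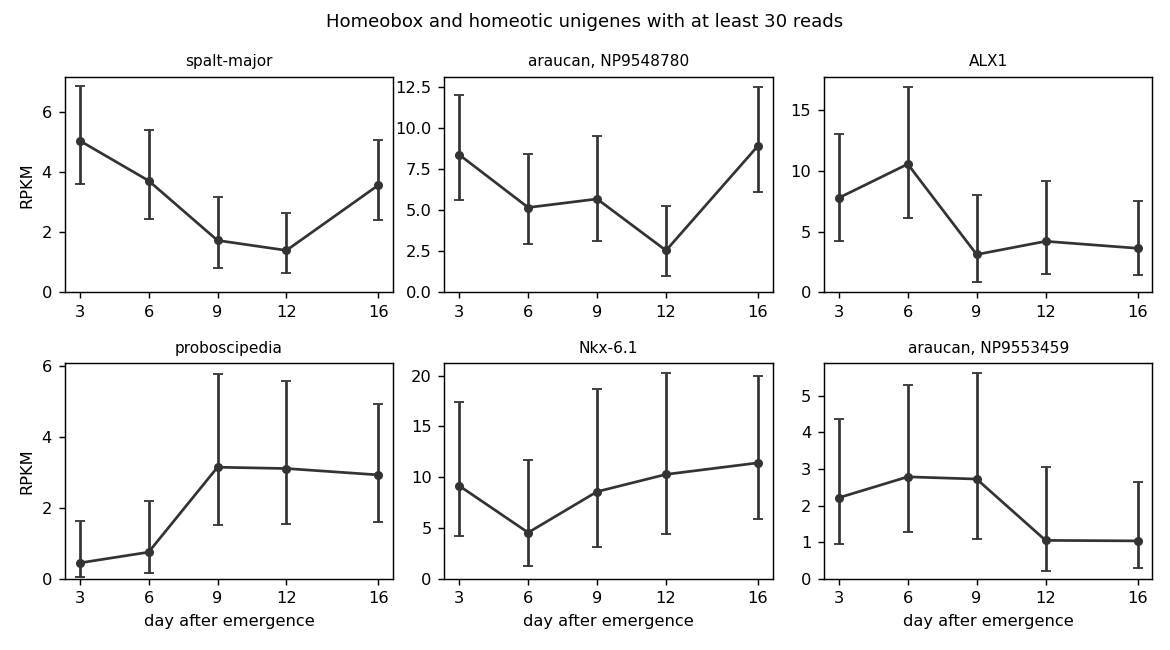
RPKM (y axis, from 0, own scale in each panel) of 6 homeobox and homeotic unigenes with at least 30 reads against day after emergence (x axis); bars are 95% exact Poisson intervals of the reads, counting error only. Spalt-major and araucan NP9548780 have their lowest value on day 12, 1.40 and 2.56, while proboscipedia is lowest on day 3.

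The remaining 13 homeobox and homeotic unigenes had 11 to 26 reads each and are named here after their values were seen. The one of most reads, otx5-B (NP9553827), of the Otx family of head and eye factors, had 14, 5, 1, 2 and 4 reads, with day 3 above every later age. Its log2 ratio on day 9 was -3.32 (-8.72 to -0.60, FDR 0.0257) and not called. LIM homeobox proteins, which carry LIM domains beside the homeodomain, were matched by 4 unigenes. Lhx3 (NP9553351) had 7, 4, 7, 0 and 3 reads and the others 12 reads or fewer in all. Homeobox protein H90 (TC12338), whose match RefSeq names Antp in the bee assembly Amel_HAv3.1, is the Hox protein Antennapedia of the thorax in *Drosophila*, and it had 3, 2, 2, 2 and 4 reads.

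**Figure D5:**
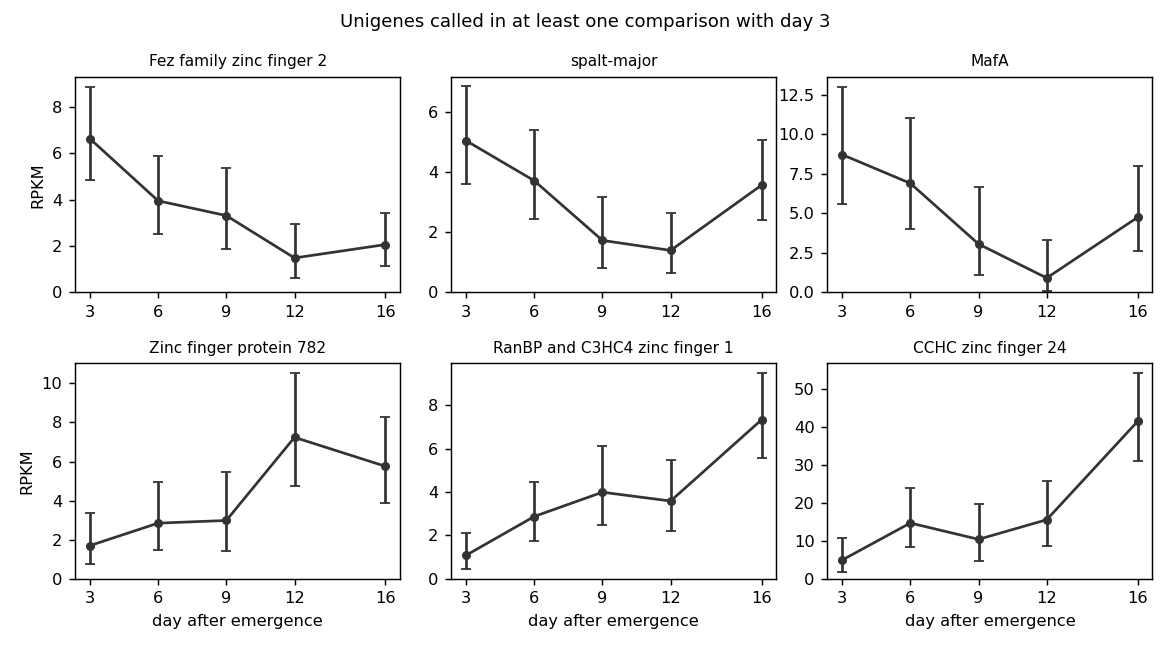
RPKM (y axis, from 0, own scale in each panel) against day after emergence (x axis) of the 6 unigenes called in a comparison with day 3; bars are 95% exact Poisson intervals of the reads, counting error only. Fez family zinc finger 2, spalt-major and MafA are highest on day 3, and the CCHC protein reaches an RPKM of 41.5 on day 16.

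Among zinc finger proteins without a further type, Fez family zinc finger protein 2 (NP9548673) was the only one of the 96 called in 2 comparisons with day 3. In vertebrates this repressor directs the fate of forebrain neurons. It had 45, 24, 16, 8 and 15 reads, or an RPKM of 6.62, 3.95, 3.31, 1.49 and 2.06. Day 3 was the highest library, and day 16 stayed near day 12. On day 12 it was at 0.225 of its day 3 RPKM, a log2 ratio of -2.15 (-3.45 to -1.05, FDR 6.09e-05 in Audic and Claverie's exact test), and on day 16 at -1.68 (-2.63 to -0.81, FDR 0.000198). With TMM scaling the values were -1.55 and -1.22 and neither was called.

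Zinc finger protein 782 (NP9549386), named for a human gene, had 8, 12, 10, 27 and 29 reads, with days 12 and 16 above the earlier ages. It rose on day 12 by 2.09 on the log2 scale (0.91 to 3.44, FDR 0.000867 in the same exact test) and was called under TMM scaling too. On day 16 the ratio to day 3 was 1.76 (0.60 to 3.10, FDR 0.0073), which was not called with the unique read total and was called with TMM.

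The best read of the 96 was TC17937, matched to a honey bee protein similar to zinc finger protein 91, with 106, 85, 55, 63 and 82 reads. Its RPKM ranged from 6.84 to 9.46, and its log2 ratios to day 3 from -0.47 to -0.16. ZXDB (NP9550722) had 62, 77, 60, 28 and 67 reads, and zinc finger protein 227 (TC16325) had 34, 28, 36, 12 and 38. Both were lowest on day 12, at a log2 ratio to day 3 of -0.81 (-1.51 to -0.14) and -1.17 (-2.25 to -0.18), and neither was called.

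Several further zinc finger proteins, named here after their values were seen, were low on day 12. Zinc finger protein 543 (TC17125) had 27, 19, 6, 5 and 19 reads and a log2 ratio of -2.10 on day 12 (-3.83 to -0.70, FDR 0.00402). PR domain zinc finger protein 1 (TC21045), the Blimp-1 repressor that ends the growth of antibody-making cells in mouse, had 12, 12, 5, 0 and 2 reads. The count of 0 on day 12 allows up to 3 reads, or 0.316 of the day 3 level after the totals are taken into account, and the FDR was 0.00491. The zinc finger protein ush (TC22333), in *Drosophila* a partner of GATA factors, had 8, 11, 11, 5 and 14 reads with no call.

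The zinc finger proteins of other named types include proteins that are no transcription factors, and both that rose on day 16 are in this class. RanBP-type and C3HC4-type zinc finger-containing protein 1 (NP9553410) carries the name of a mammalian subunit of the ligase that builds linear ubiquitin chains. It had 8, 19, 21, 21 and 58 reads, or an RPKM of 1.08, 2.87, 3.99, 3.59 and 7.33. Day 3 was lowest, the middle ages were alike and day 16 stood highest. It was 6.78-fold higher on day 16 than on day 3, a log2 ratio of 2.76 (1.69 to 4.04, FDR 1.14e-08 in the exact test).

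CCHC domain-containing protein 24 (NP9553885), with the zinc knuckle found in many RNA-binding proteins, had 6, 16, 9, 15 and 54 reads. Its RPKM was 4.93, 14.7, 10.4, 15.6 and 41.5, with day 16 far above the other ages. The day 16 value was 8.42-fold that of day 3, a log2 ratio of 3.07 (1.86 to 4.58, FDR 5.97e-09 in the exact test), and it was called in every alternative tried that kept this class. Day 16 against day 12 gave 1.41 (0.57 to 2.35, FDR 0.00657) and no call. FYVE domain-containing protein 26 (NP9550766), a lipid-binding protein of endosomes in human cells, went the other way with 47, 38, 24, 20 and 30 reads, and was not called.

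Muscle marker names were also high on day 16. Of the 32, 18 were called higher on day 16 against day 3 and 0 lower, beside 2.51% and 9.9% of all unigenes. Of the named unigenes, 5.23% were called higher and 0.807% lower. The sum of the 32 went from 313 to 2369 RPM, with 1 of them without a read on day 12 and none on day 16. The 18 photoreceptor and antenna names went from 57.7 to 280 RPM, of which 3 odorant binding proteins held 222 on day 16. The other 15 had 50.7 RPM on day 3, 26.8 on day 12 and 57.8 on day 16. What part such cells have in the values of RanBP-type protein 1 and the CCHC protein was not tested.

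SUM-1 (NP9552544), a sea urchin member of the MyoD family that switches on muscle genes, had 5, 6, 5, 11 and 27 reads, or an RPKM of 3.26, 4.37, 4.58, 9.05 and 16.4. It is named here after its values were seen. The first 3 ages were alike and day 16 was highest, at a log2 ratio to day 3 of 2.34 (0.94 to 4.07). Its FDR of 0.00135 missed the threshold, and it was called with TMM scaling and with Fisher's exact test. The sum of the muscle markers was also highest at the last age, at 313, 918, 1459, 1608 and 2369 RPM in the order of age. With 5, 6 and 5 reads at the first 3 ages, SUM-1 is read too sparsely to say whether its rise began later. The part of muscle cells in the SUM-1 value was not tested.

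MafA (TC13977), a leucine zipper factor of the large Maf family that in mouse activates the insulin gene, was the third unigene that fell on day 12. It had 24, 17, 6, 2 and 14 reads, or an RPKM of 8.73, 6.91, 3.07, 0.918 and 4.76. Reads were fewest on day 12 and more numerous again on day 16. The log2 ratio to day 3 was -3.25 on day 12 (-6.37 to -1.24, FDR 0.000431 in the exact test) and -0.87 on day 16 (-1.94 to 0.13), and it was not called on day 12 with TMM scaling, at -2.65.

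ATF-2 (NP9548071), a leucine zipper factor switched on by stress kinases in mammals, had 66, 50, 29, 28 and 39 reads. MTF2 (NP9553761), named for metal response but known in mammals as a partner of the Polycomb repressor complex, had 40, 26, 17, 16 and 31. Both were lowest on day 12, at a log2 ratio to day 3 of -0.90 (-1.59 to -0.24) and -0.98 (-1.92 to -0.12), and neither was called in any comparison.

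ATF-6 alpha (TC18327) is held in the membrane of the endoplasmic reticulum and, when unfolded protein builds up there, is cut by site-1 and site-2 proteases to free a factor for chaperone genes. The search caught all of these, but the naming rule does not take the proteases, which are named here after their values were seen. ATF-6 had 17, 28, 26, 22 and 32 reads, or an RPKM of 6.48, 11.9, 13.9, 10.6 and 11.4, lowest on day 3 and alike afterwards. Its log2 ratio was highest on day 9, at 1.10 (0.17 to 2.08, FDR 0.0834). The site-1 protease (TC12886), not itself a transcription factor, had 30, 25, 13, 8 and 40 reads, with a log2 ratio of -1.57 for day 12 over day 3 and 1.89 for day 16 over day 12 (0.77 to 3.19, FDR 0.00379). The site-2 protease (TC23629) had 2, 5, 3, 6 and 3 reads. None of the 3 was called.

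The basal factors are read best for their class, with 57 to 148 reads each, and single members varied more than their sum. TFIIIB90 (TC19223) and a TFIIIC subunit (TC20594) place RNA polymerase III on transfer RNA genes. The former had 32, 31, 22, 27 and 36 reads, or an RPKM of 9.04, 9.79, 8.74, 9.63 and 9.51. The latter had 26, 19, 21, 16 and 19 reads, or an RPKM of 9.89, 8.08, 11.2, 7.68 and 6.76. TFIIH subunit 1 (TC14881), part of the complex that opens promoters and repairs DNA, had 26, 20, 18, 17 and 25 reads, and its RPKM ranged from 6.77 to 8.19. TFIIH subunit 4 (NP9553919), named here after its values were seen, varied most of the 9, from an RPKM of 8.91 on day 6 to 2.12 on day 12. No basal factor was called in any comparison, and for TFIIIB90 the interval on day 12 against day 3 ran from -0.70 to 0.88.

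Other genes of transcription, found in the same annotation by name, were compared with them. Nuclear receptors, the ligand-gated factors that read ecdysone among other signals, numbered 9, with 1 called lower on day 12 and 2 on day 16 against day 3. Of all unigenes, 12.5% and 9.9% were called lower in these comparisons, and of the named unigenes 1.81% and 0.807%. The sum of the receptors was 66.6, 63.9, 39.8, 35.7 and 46.8 RPM. Ecdysone-induced protein 78C (NP9550369) had 26, 16, 4, 3 and 6 reads and was called lower on days 12 and 16, and the match to nr6a1 (NP9551433) had 38, 29, 9, 13 and 9 and was called lower on day 16. None of 30 subunits of RNA polymerases, mediator and TFIID, 22 chromatin enzymes and remodellers or 23 splicing factors and RNA helicases was called in any of the 5 comparisons. Many unigenes of these lists had fewer than the 16 reads on day 3 from which a fall to 0 could be called on day 12. Relative to the named unigenes the median of these lists on day 12 was 0.47, -0.23 and 0.37, beside -0.94 for the nuclear receptors and -0.24 for the 96.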

How the data were processed

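Per the study's methods, the authors removed reads with adapters or low quality and aligned the rest to the Honey Bee Gene Index of DFCI by SOAP2 (version not given in the sources used here), with up to 2 mismatches. For each library the authors deposited the count of unique reads of each unigene, its RPKM made from that count, the length and the total of unique reads, and the coverage, the fraction of the unigene that the reads cover. Reads matching several unigenes are not in these values, so close copies, frequent among zinc finger genes, are counted from distinguishing reads alone. The strand of a read was not used here, and no genome coordinates are given. The deposited annotation of the day 3 library, which covers the 7628 unigenes with an RPKM above 0 and under 10 there, gave the names. Of the 4 honey bee matches, 1 was found in RefSeq (Amel_HAv3.1). Sequences of the unigenes are not used here.

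Counts were tested with Audic and Claverie's exact test (two-sided; Python 3.11.15, scipy 1.17.1), adjusted by Benjamini and Hochberg over all unigenes with a read in either library. Fisher's exact test, scaling by TMM (edgeR 4.0.16 in R 4.3.3) or by median of ratios, totals without the 10 most abundant unigenes of each library, an assumed coefficient of variation of 0.2 between replicates (edgeR), other read minimums, a pseudocount of 1 and the class of zinc finger proteins of other types left out were tried. The test was checked on simulated counts. Medians use log2 of RPKM plus 0.1. Intervals are 95% exact intervals, and the floor is 3 reads.

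The members, classes and lists were chosen with earlier results of these data known, and the search patterns of the classes and lists were corrected after names and values had been seen. The naming rule takes each homeobox or homeotic unigene of at least 30 reads, the 3 best read of each class, and the called ones. The text says where another was named after its values were seen. Some homeobox unigenes that the rule names are not reported here. The single columns of the libraries' other sheets were not used.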

Additional observations from a re-analysis of the deposited data

How the results depend on the processing

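Calls depended on scaling and on the assumed spread. A median relative to the named unigenes is hardly open to scaling, which shifts both lists alike, and under the other alternatives all 20 lay inside the 95% order-statistic interval of the value reported. Of the 10 counts reported only 4 were above 0, and 17 of their 32 alternative values were within 1.5 times the count reported. On day 12 against day 3, where 1 was called higher and 3 lower, TMM gave 2 and 0, median of ratios 2 and 0, totals without the most abundant unigenes 1 and 0, and the assumed variation of 0.2 gave 0 and 0. On day 16 against day 3, where 2 were called higher and 1 lower, these gave 4 and 0, 4 and 0, 3 and 0, and 1 and 0. Without the zinc finger proteins of other types 0 were called higher on day 16, since both called are in that class. On day 9, 1 was called higher with median of ratios. Every lower call was thus lost under 4 alternatives, and the cause was not tested. Of 106 uncalled ratios of the 23 unigenes named by rule, 15 changed sign with TMM. The class sums without some members were added after seeing the data: without its called members the sum of the other zinc finger types on day 16 was at -0.27, reversed from 0.96, which leaving out members that rose fixes in part, and without the 2 of most reads it was at 1.51. With 1 library per age, nothing here measures the spread between pools of bees.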

Other observations

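The 36 name matches under 10 reads were left out of every value above. They held 13 homeobox or homeotic unigenes of 34 name matches, 14 of 51 zinc finger proteins without a further type, 8 of 29 other named transcription factors and 1 of 9 zinc finger proteins of other types, and none of the 9 basal factors. From day 3 to day 16 they had 71, 39, 20, 17 and 38 reads together. Each had a read on day 3, because the annotation lists unigenes read there, and 13, 21, 24 and 16 of them had none on days 6, 9, 12 and 16, so their ratios to day 3 are set in part by that choice. They include homeotic protein empty spiracles (NP9547458), a head gap gene in *Drosophila*, with 2, 1, 2, 0 and 1 reads, goosecoid (NP9550479) with 2, 3, 0, 1 and 1, and kayak (TC21180), the Fos partner of the AP-1 factor, with 1, 2, 0, 1 and 5. They were picked for naming after their values were seen.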
